A study of Oryza sativa with 6 samples.

Results

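The genes of the NAC transcription factor family were followed in rice grains of the mutant sg34 and of its wild type (WT), Zhenong 34. A gene was taken as a NAC gene when the first protein name in its deposited description held the words NAC domain-containing or NAC transcription factor, with LOC_Os01g01470 and LOC_Os01g29840 left out. That gave 77 of the 55986 rows of the table, spread over 12 chromosomes as read from the locus IDs. Of these 77 genes, 75 also carried the annotated NAM domain, the DNA-binding domain of the family, which the choice did not use. The domain was annotated in 137 rows in all, so 62 rows with it lay outside the choice; some of these carry another name, some carry no description, and LOC_Os01g01470 was left out by its ID.

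Messenger RNA was sequenced from 3 libraries of sg34 grains and 3 libraries of WT grains, all labelled as the mature period, with no further treatment and no gene named as mutated in sg34. No targeted gene could therefore be examined as a check of the labels. Nothing in the labels ties the replicates to separate plants or harvests, so the p-values below measure the spread among these libraries, and that spread may be technical. The values are TPM, a relative abundance corrected for transcript length, which keeps no record of sequencing depth.

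NAC proteins bind DNA as dimers through a conserved N-terminal domain, and their C-terminal parts activate or repress transcription. The family is specific to plants. In rice its members act in endosperm filling, in drought and abscisic acid responses, in leaf senescence and in secondary wall formation. Some are held at membranes and released on stress, and some are cut by the microRNA miR164. The descriptions in the table name the nearest match in a protein database, often from another species, so rice gene names are given here by locus ID.

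Grain marker genes were present in every library: 7 endosperm markers summed to 64182, 61590 and 60095 TPM in sg34 libraries 1 to 3 and to 13867, 49148 and 36701 TPM in WT libraries 1 to 3. The 4 embryo markers summed to between 2190 and 3288 TPM in sg34 and between 1010 and 4127 TPM in WT. The 4 green tissue markers summed to between 20.3 and 60.8 TPM in sg34 and between 6.82 and 144 TPM in WT, with the highest value in WT replicate 1. That library had the lowest endosperm sum, the lowest embryo sum and the largest scaling divisor, 1.66, against 0.702 to 1.22 in the other 5 libraries. The grains were sequenced in bulk, so fewer cells of a type and less RNA per cell cannot be told apart. Differences below are on the log2(TPM + 1) scale after dividing each library by its divisor. Scaling matters for every direction given: without it the median difference of all 16917 tested rows was -0.43, and with it -0.01.

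A few genes supplied most of the transcripts of the 77 NAC genes in mature grains. ONAC023, ONAC024 and ONAC025, which are known for expression in rice seeds, together made up 80.3%, 83.8% and 83.2% of the 77 genes' summed TPM in sg34 libraries 1 to 3 and 81.2%, 87.8% and 76.2% in WT libraries 1 to 3. The 77 genes took 0.144%, 0.176% and 0.161% of all TPM in sg34 and 0.196%, 0.240% and 0.185% in WT, a mean of 0.160% ± 0.016 in sg34 and 0.207% ± 0.029 in WT (SD, n = 3 each). Every sg34 library was below every WT library in this share, although the groups overlapped after scaling, where the 77 genes summed to 2033, 2246 and 1485 in sg34 and to 1140, 2784 and 1483 in WT. The order also rests on the choice of genes, as seen by adding 2 abundant rows with the NAM domain, LOC_Os01g01470 and LOC_Os01g29840. The former met the name rule and was left out by ID, while the latter carries another name. With both added, the share was 0.201%, 0.248% and 0.239% in sg34 and 0.240%, 0.282% and 0.216% in WT, which overlap. These shares are descriptions without a test.

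Of the 77 genes, 5 were listed at 0 in all libraries and 72 had a value above 0 in at least 1 library. The number with at least 1 TPM was 23, 26 and 22 in sg34 libraries 1 to 3 and 34, 21 and 29 in WT libraries 1 to 3. A difference was tested for the 25 genes that reached 1 TPM in 3 or more libraries. The other 47 detected genes stayed low, with 6.11 TPM as their highest single value, that of LOC_Os05g10620 in WT replicate 3. Of the 25 tested genes, 3 averaged at least 100 TPM over the 6 libraries, 8 averaged 10 to 100 TPM and 14 averaged less than 10 TPM.

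**Figure D1:**
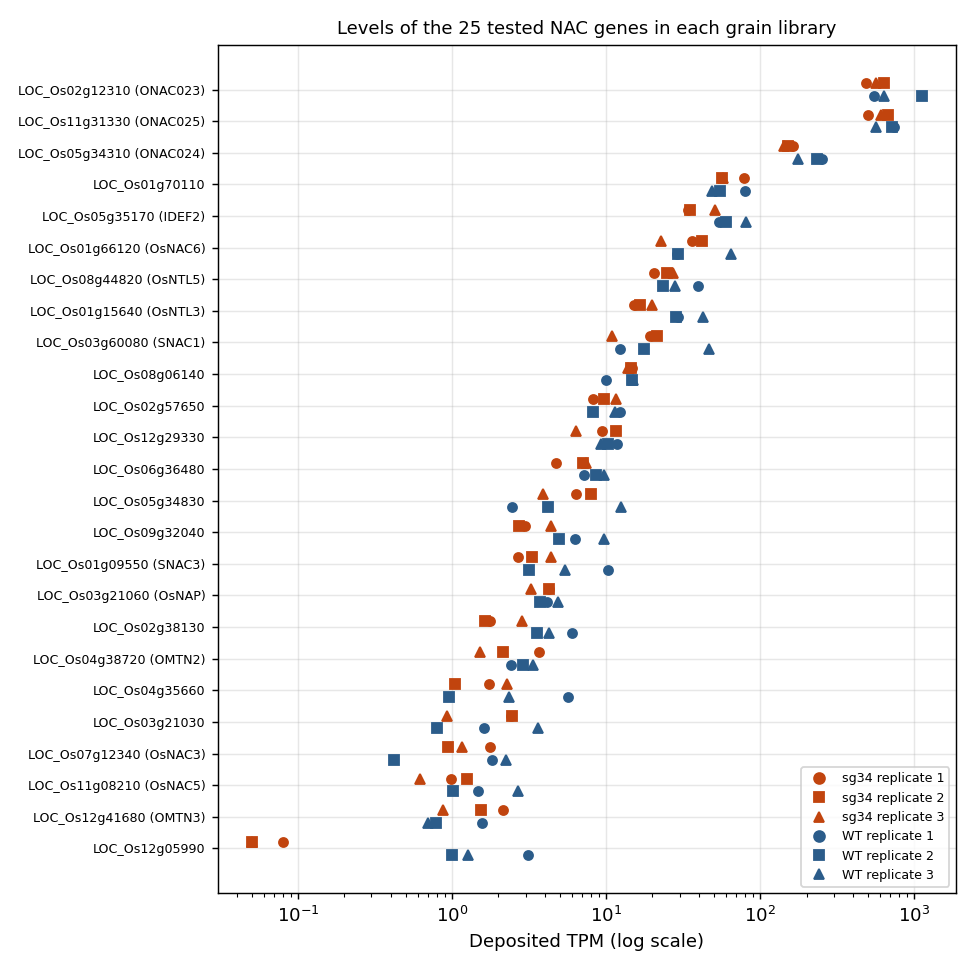
Deposited TPM (log scale) of the 25 tested NAC genes, ordered by mean, with sg34 libraries drawn above WT libraries and the replicate shown by the marker. The 3 highest genes stand apart from the rest, and LOC_Os12g05990, at the bottom, is the gene whose sg34 values of 0.05 to 0.08 TPM lie farthest from its WT values of 1.0 to 3.11 TPM.

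ONAC023 (LOC_Os02g12310) was listed at 484, 634 and 564 TPM in sg34 and at 548, 1122 and 640 TPM in WT. ONAC025 (LOC_Os11g31330), which is expressed in rice endosperm, had 498, 672 and 611 TPM in sg34 and 737, 721 and 567 TPM in WT. ONAC024 (LOC_Os05g34310), another seed-preferred gene, had 164, 151 and 142 TPM in sg34 and 253, 233 and 176 TPM in WT. The groups overlapped for ONAC023 and ONAC025, while all sg34 values of ONAC024 were below all its WT values on the deposited scale. After scaling none of the 3 genes passed the test: the log2 difference was 0.13 ± 0.54 (SE; limma adjusted p = 0.915) for ONAC023 and 0.34 ± 0.37 (adjusted p = 0.656) for ONAC025. For ONAC024 it was 0.004 ± 0.35 (adjusted p = 0.996). Without rescaling all 3 differences turned negative, at -0.39 for ONAC023, -0.19 for ONAC025 and -0.52 for ONAC024. The order of the 2 highest genes was not fixed, since ONAC023 exceeded ONAC025 in 2 of the 6 libraries. ONAC025 exceeded ONAC024, and ONAC024 exceeded the fourth gene, LOC_Os01g70110, in all 6.

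ONAC025 lies on chromosome 11 beside ONAC127, ONAC128 and ONAC129, seed-preferred NAC genes that carry no description in the table and so are not among the 77. ONAC127 and ONAC129 are known in rice to form a heterodimer in the pericarp and to act in grain filling. ONAC129 (LOC_Os11g31380) had 18.8, 18.1 and 21.4 TPM in sg34 and 11.9, 12.8 and 9.74 TPM in WT, with all sg34 values above all WT values. Its log2 difference was 1.20 ± 0.29, with a limma adjusted p of 0.0908, which misses the threshold of 0.05. That difference was 1.51 (adjusted p = 0.0219) without WT replicate 2 and 0.72 (adjusted p = 0.284) without rescaling. Over all alternative settings the limma adjusted p ran from 0.00402 to 0.317. ONAC127 (LOC_Os11g31340) had 20.9, 17.3 and 30.1 TPM in sg34 and 26.2, 24.4 and 35.7 TPM in WT, which overlap (0.16 ± 0.28, adjusted p = 0.789). ONAC128 (LOC_Os11g31360) had 9.10, 4.96 and 10.8 TPM in sg34 and 4.66, 6.20 and 7.36 TPM in WT, which also overlap (0.79 ± 0.37, adjusted p = 0.330). Of the 6 seed-preferred NAC genes in the list, all tested, 0 were called higher and 0 lower. The list's median log2 difference was 0.25. Among the 20 rows nearest to ONAC025 by locus order, 6 were tested, with differences between 0.12 and 1.20 and 0 calls.

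**Figure D2:**
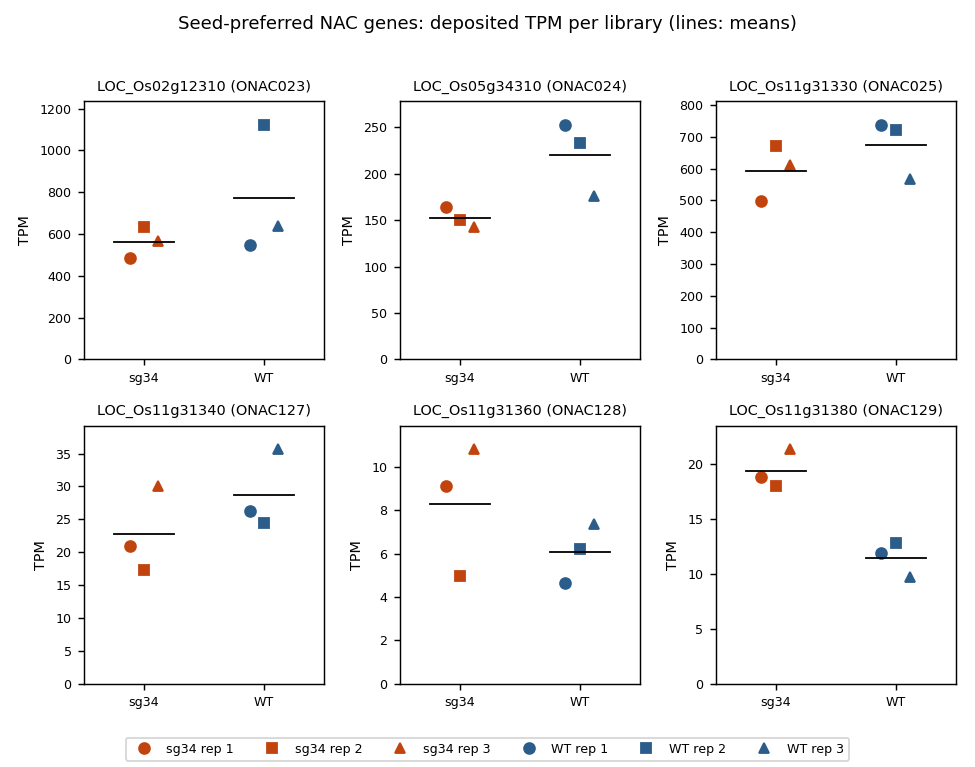
Deposited TPM of 6 seed-preferred NAC genes in sg34 (left) and WT (right) libraries, each axis from 0, with lines at the group means. ONAC129 is the 1 gene of the 6 with all sg34 libraries, 18.1 to 21.4 TPM, above all WT libraries, 9.74 to 12.8 TPM.

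Across all 25 tested NAC genes, 0 were called higher in sg34, against 1.89% of all tested rows, and 1 was called lower, against 1.87% of all tested rows, at an adjusted p below 0.05 in limma. In either direction 3.76% of all tested rows were called. The remaining 24 NAC genes were not called. At an unadjusted p below 0.05 there were 2 genes, against 17.3% of all tested rows. The median difference was 0.16 and 17 of the 25 were positive and 8 negative, but without rescaling the median was -0.30 with 5 positive and 20 negative. Leaving out the scaling lowered the median of all tested rows as well: the NAC median lay 0.17 above that median with scaling and 0.14 above it without. After scaling, the libraries of the 2 lines did not overlap for 1 higher gene, against 10.9% of all tested rows, and for 2 lower genes, against 12.7%. On the deposited TPM the groups did not overlap for 0 higher and 6 lower genes, against 4.59% and 17% of all tested rows. The log2 difference was smaller than 1 in size in 24 of the 25 NAC genes, or 96%, and in 90.3% of all tested rows. The spread of log2 values was larger among WT than among sg34 libraries for 16 of the 25, or 64%, and for 72.6% of all tested rows.

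**Figure D3:**
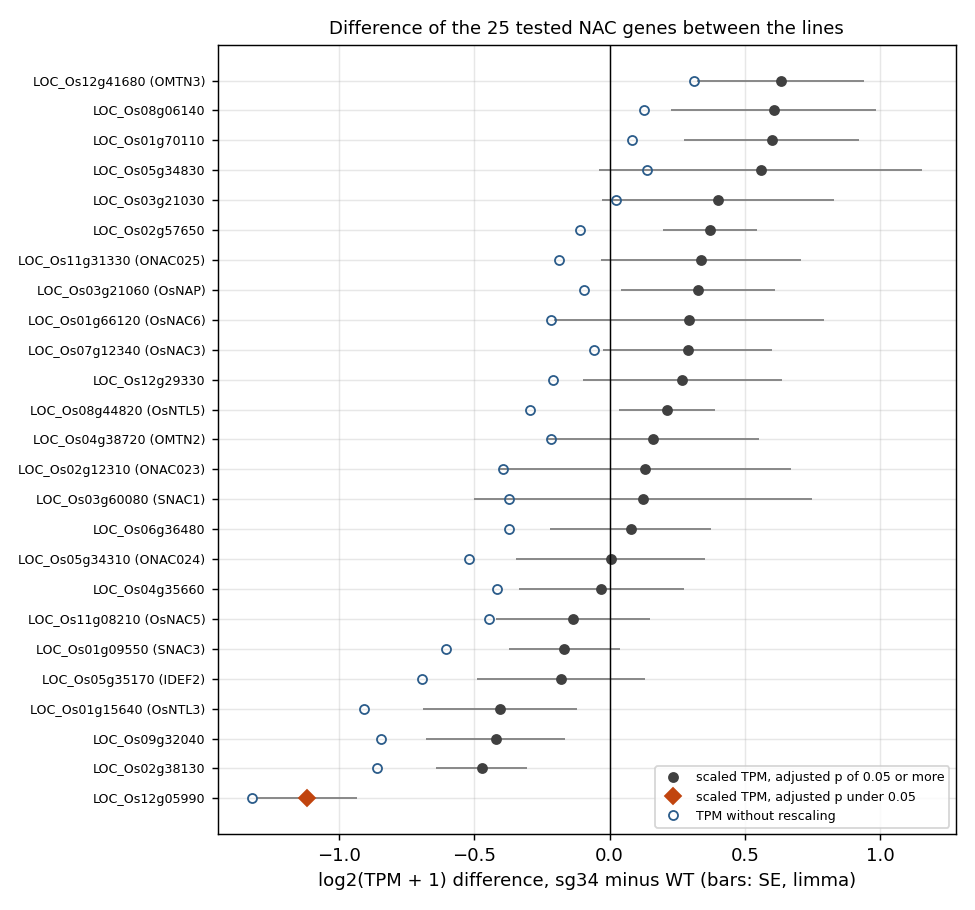
Log2 difference, sg34 minus WT, of the 25 tested NAC genes after scaling (filled, with the standard error) and without rescaling (open). LOC_Os12g05990 at -1.12 is the 1 gene past the threshold, and the open symbols lie left of the filled ones for all 25 genes, with 12 changing sign.

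The 1 called gene was LOC_Os12g05990, described as similar to ANAC090, which in Arabidopsis represses leaf senescence. It had 0.08, 0.05 and 0.05 TPM in sg34 and 3.11, 1.0 and 1.27 TPM in WT. It was at or near 0 in all sg34 libraries and at 1 TPM or more in every WT library, and it was the only NAC gene with at least 1 TPM in all libraries of one line and at most 0.1 TPM in all of the other. The share of all rows that meet this rule was not counted, so the pattern is not shown to be particular to NAC genes. It reached the filter for testing only through its WT libraries. Scaled values were 0.114, 0.0646 and 0.0469 in sg34 and 1.87, 1.18 and 1.04 in WT. The log2 difference was -1.12 ± 0.19 (limma adjusted p = 0.0237). With a pseudocount of 0.1 in place of 1 it was -3.04 (adjusted p = 0.00976), and with 5 it was -0.32 (adjusted p = 0.0487), since the size depends on the value added to so low a gene. The call was lost without rescaling (-1.32, adjusted p = 0.0688) and when sg34 replicate 1, 2 or 3 was left out (adjusted p = 0.0908, 0.126 and 0.0903), and it held when WT replicate 1, 2 or 3 was left out (adjusted p = 0.0356, 0.0495 and 0.0491). At so low a level the value can rest on few reads, and their number is unknown.

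The ends of rice chromosomes 11 and 12 carry a duplicated segment, and LOC_Os12g05990 has a counterpart of the same description, LOC_Os11g05614, near genes with descriptions that match in both places (an mRNA-decapping enzyme-like protein and a cationic amino acid transporter). LOC_Os11g05614, singled out after its values were seen, had 0.36, 0.49 and 0.14 TPM in sg34 and 0.08, 0.00 and 0.04 TPM in WT. Its sg34 values were all above its WT values, the opposite order to that of LOC_Os12g05990, but it was too low to be tested; in a fit with no filter its difference was 0.45 (limma adjusted p = 0.236). The 2 genes together summed to 0.440, 0.540 and 0.190 TPM in sg34 and to 3.19, 1.0 and 1.31 TPM in WT, so the sum was also below WT in every sg34 library. Reads of such copies can be split between them in counting, and how the submitters treated reads that fit both was not given in the sources used here. Of the 20 rows nearest to LOC_Os12g05990, 9 were tested and 0 were called, with differences between -0.59 and 0.80. Near LOC_Os11g05614, 10 of 20 were tested and 0 were called, with differences between -1.71 and 0.27.

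Other NAC genes of that duplication were low as well. The pair ONAC131 (LOC_Os12g03040) and OsNAC10 (LOC_Os11g03300), a root-expressed drought factor in rice, had its highest values in the same library, sg34 replicate 2, at 2.04 TPM for ONAC131 and 1.32 TPM for OsNAC10. In the other 5 libraries ONAC131 lay between 0.20 and 0.87 TPM and OsNAC10 between 0.08 and 0.59 TPM, and the lines overlapped for both. LOC_Os12g03050, singled out after its values were seen, had 0.26, 0.14 and 0.15 TPM in sg34 and 0.62, 0.43 and 1.13 TPM in WT, with all sg34 values below all WT values. Among all detected NAC genes under the filter the deposited TPM did not overlap for 1 higher gene, LOC_Os11g05614, and 2 lower genes, LOC_Os12g03050 and LOC_Os08g10080. Over all 16979 detected rows under the filter, 3.52% were higher and 7.14% lower without overlap. In a fit without the filter, which took in the 47 detected genes under it, none of the 47 was called, and the smallest adjusted p was the 0.236 of LOC_Os11g05614.

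**Figure D4:**
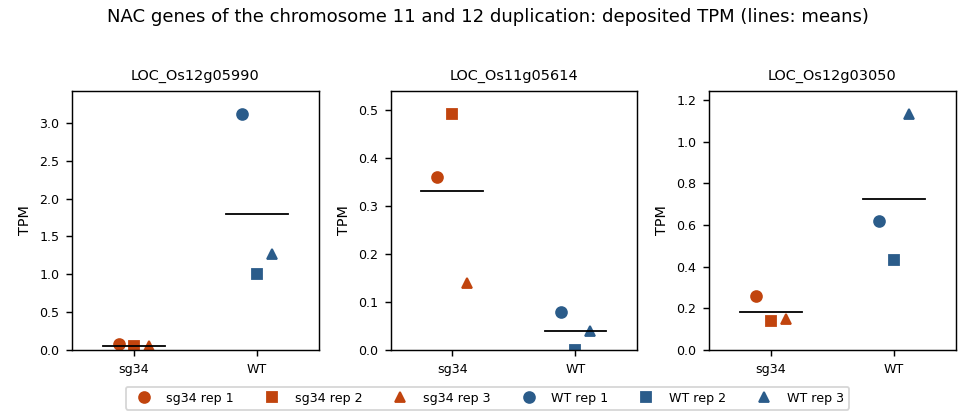
Deposited TPM of LOC_Os12g05990, its chromosome 11 counterpart LOC_Os11g05614 and LOC_Os12g03050 in sg34 (left) and WT (right), each axis from 0, with lines at the group means. LOC_Os12g05990 reaches 3.11 TPM in WT and at most 0.08 TPM in sg34, while LOC_Os11g05614 reaches 0.49 TPM in sg34 and at most 0.08 TPM in WT.

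Below the seed genes came LOC_Os01g70110, with 78.9, 56.2 and 57.1 TPM in sg34 and 79.4, 54.9 and 48.8 TPM in WT. The lines overlapped, and the log2 difference of 0.60 ± 0.32 did not pass the test (limma adjusted p = 0.391). IDEF2 (LOC_Os05g35170), which in rice binds promoters of iron-deficiency genes, had 33.9, 35.0 and 51.0 TPM in sg34 and 54.2, 60.1 and 80.5 TPM in WT. All sg34 values were below all WT values as deposited, but after scaling the difference was -0.18 ± 0.31 (adjusted p = 0.789) and the groups overlapped.

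The NAC genes known for stress responses were of low to moderate level, and their lines overlapped. SNAC1 (LOC_Os03g60080), which in rice promotes stomatal closure under drought, had 19.3, 21.5 and 10.9 TPM in sg34 and 12.3, 17.5 and 46.5 TPM in WT. OsNAC6 (LOC_Os01g66120), induced by drought, salt and abscisic acid, had 36.0, 41.9 and 22.8 TPM in sg34 and 28.9, 29.3 and 64.4 TPM in WT. As deposited, both were highest in WT replicate 3 and lowest or nearly so in sg34 replicate 3 and WT replicate 1, and the lines overlapped. Neither passed the test, with log2 differences of 0.12 ± 0.62 (limma adjusted p = 0.931) for SNAC1 and 0.29 ± 0.50 (adjusted p = 0.782) for OsNAC6; both are negative without rescaling, at -0.37 and -0.22. LOC_Os05g34830, which shares its description with OsNAC6, had 6.35, 8.0 and 3.88 TPM in sg34 and 2.45, 4.20 and 12.5 TPM in WT (0.56 ± 0.60, adjusted p = 0.647), again with the highest deposited value in WT replicate 3.

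SNAC3 (LOC_Os01g09550), a rice factor of drought and heat tolerance, had 2.67, 3.29 and 4.42 TPM in sg34 and 10.2, 3.16 and 5.44 TPM in WT, and here WT replicate 1 was the highest (-0.17 ± 0.20, limma adjusted p = 0.691). OsNAC3 (LOC_Os07g12340) had 1.76, 0.94 and 1.16 TPM in sg34 and 1.82, 0.42 and 2.25 TPM in WT (0.29 ± 0.31, adjusted p = 0.650). OsNAC5 (LOC_Os11g08210), another stress and abscisic acid gene of rice, had 0.98, 1.26 and 0.62 TPM in sg34 and 1.47, 1.02 and 2.67 TPM in WT (-0.14 ± 0.29, adjusted p = 0.830). The lines overlapped for all 3. Of the 11 stress NAC genes in the list, 5 were tested, with 0 called higher, 0 called lower and a median difference of 0.12. The 11 genes summed to 62.6, 74.1 and 41.6 TPM in sg34 and to 59.5, 52.8 and 125 TPM in WT.

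Genes known to be induced with the stress NAC factors were also highest in WT replicate 3 on the deposited scale. LEA3 (LOC_Os05g46480), a late embryogenesis abundant protein that protects dehydrating tissue, had 195, 335 and 108 TPM in sg34 and 10.2, 54.8 and 582 TPM in WT. RAB16A (LOC_Os11g26790), a dehydrin induced by abscisic acid, had 95.9, 250 and 21.1 TPM in sg34 and 0.16, 16.8 and 260 TPM in WT. WT replicate 3 was the highest and WT replicate 1 the lowest library for both, and the differences of 1.93 ± 1.44 (limma adjusted p = 0.510) and 2.52 ± 1.92 (adjusted p = 0.520) did not pass the test. ERD1 (LOC_Os02g32520), a chloroplast protease regulator whose promoter is bound by stress NAC factors in Arabidopsis, had 1.32, 1.66 and 1.09 TPM in sg34 and 1.21, 0.41 and 4.50 TPM in WT (0.20 ± 0.45, adjusted p = 0.836). Of these 3 genes, 0 were called in either direction. After scaling, sg34 replicate 2 was the highest library in place of WT replicate 3 for OsNAC6 (54.1 against 52.6), LOC_Os05g34830 (10.33 against 10.25) and RAB16A (323 against 213), while SNAC1, LEA3 and ERD1 stayed highest in WT replicate 3. Over the 25 tested NAC genes, WT replicate 3 was the highest library for 12 as deposited and for 4 after scaling. The same count over all tested rows was not made, so this is not shown to be a trait of NAC genes. As deposited, the embryo marker sum was also highest in WT replicate 3, at 4127 TPM. It was lowest in WT replicate 1, at 1010 TPM. The markers oleosin 16 and oleosin 18 had that order. VP1 was highest in WT replicate 3 but lowest in WT replicate 2. OSH1 was instead highest in WT replicate 1, at 10.8 TPM, against 2.61 TPM in WT replicate 3. After scaling, sg34 replicate 1 exceeded WT replicate 3 for oleosin 16 (3218 against 2178) and oleosin 18 (1449 against 1180). The part of embryo content in the values of the stress genes was not tested.

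**Figure D5:**
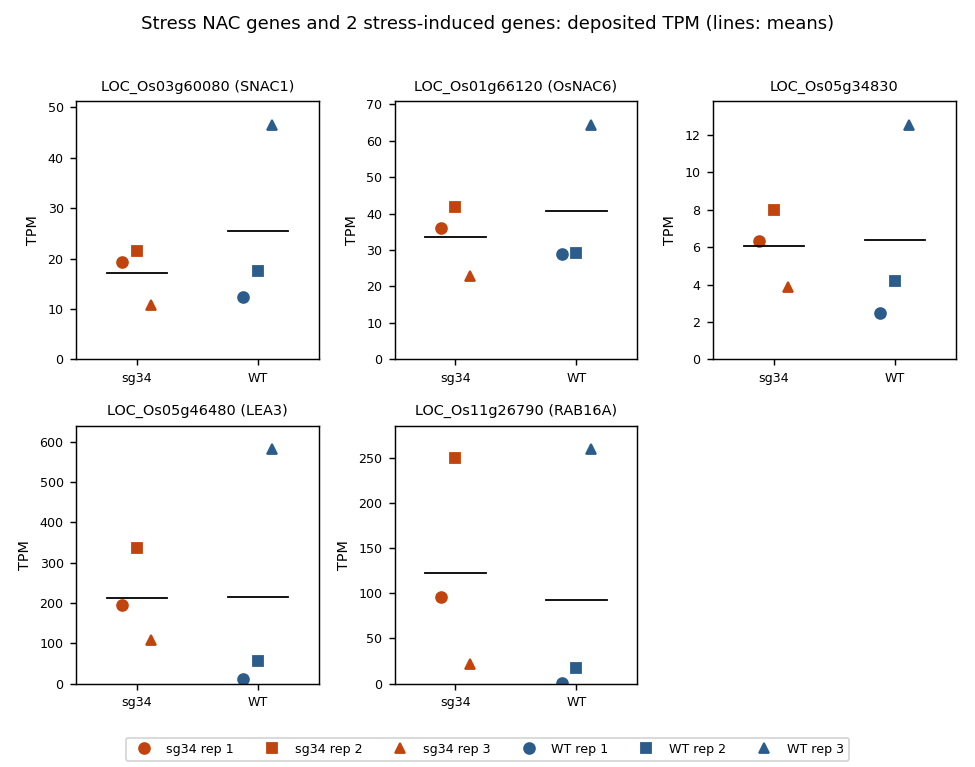
Deposited TPM of SNAC1, OsNAC6, LOC_Os05g34830, LEA3 and RAB16A in sg34 (left) and WT (right), each axis from 0, with lines at the group means. On this scale WT replicate 3 is the highest library for all 5 genes, for example 46.5 TPM for SNAC1 and 582 TPM for LEA3, while WT replicate 1 is the lowest WT library for all 5.

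The NAC genes annotated to a membrane were all expressed above the filter. Of the 77 genes, 6 carried a membrane term, and all 6 were tested, against 19 of the 71 genes without the term; this is a description with no test. OsNTL3 (LOC_Os01g15640), a membrane-bound factor that in rice carries heat signals to the nucleus, had 15.1, 16.5 and 20.0 TPM in sg34 and 29.2, 28.6 and 42.7 TPM in WT. All sg34 values were below all WT values as deposited, but the groups overlapped after scaling. The difference of -0.41 ± 0.28 did not pass the test (limma adjusted p = 0.486), but it passed with library weights at -0.61 (adjusted p = 0.0292). Library weights called 2137 rows higher and 1779 lower of the 16917 tested, against 320 and 316 in the reported fit. LOC_Os09g32040 was at 2.97, 2.72 and 4.42 TPM in sg34 and at 6.27, 4.94 and 9.72 TPM in WT. Its sg34 values were likewise all below its WT values as deposited (-0.42 ± 0.26, adjusted p = 0.434), and library weights gave -0.82 (adjusted p = 0.0148). OsNTL5 (LOC_Os08g44820) was at 20.6, 24.7 and 27.1 TPM in sg34 and at 39.6, 23.6 and 28.0 TPM in WT, which overlap. Its difference of 0.21 ± 0.18 (adjusted p = 0.559) became -0.30 without rescaling. LOC_Os08g06140 was almost level over the sg34 libraries, at 14.6, 14.4 and 13.9 TPM, and had 9.91, 14.8 and 15.0 TPM in WT (0.61 ± 0.38, adjusted p = 0.441). LOC_Os02g57650 was the gene whose scaled values were higher in all sg34 libraries, at 11.7, 12.4 and 10.8, than in all WT libraries, at 7.45, 9.67 and 9.37 (0.37 ± 0.17, adjusted p = 0.338), while its deposited TPM overlapped.

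Among the tested NAC genes, LOC_Os02g38130 and LOC_Os12g05990 were the ones lower in sg34 without overlap on both scales. LOC_Os02g38130 has its nearest database match by description in the group of SOG1, which in Arabidopsis governs the response to DNA damage. That description is shared by 7 of the 77 genes, SNAC3 among them. LOC_Os02g38130 had 1.76, 1.63 and 2.86 TPM in sg34 and 5.99, 3.54 and 4.29 TPM in WT. Every sg34 value was below every WT value, but the difference of -0.47 ± 0.17 did not pass the test over all rows (limma adjusted p = 0.222). It passed with library weights at -0.55 (adjusted p = 0.0240), a setting that called 1779 of 16917 tested rows lower.

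Of the 6 NAC genes known as targets of miR164, which limits NAC activity in rice development and drought responses, 5 were among the 77 and 2 were tested. OMTN2 (LOC_Os04g38720, also OsNAC2), which in rice acts in plant height, flowering and abscisic acid responses, had 3.68, 2.13 and 1.51 TPM in sg34 and 2.41, 2.90 and 3.35 TPM in WT (0.16 ± 0.39, limma adjusted p = 0.851). OMTN3 (LOC_Os12g41680), one of the miR164 targets that lower drought resistance in rice, had 2.14, 1.54 and 0.87 TPM in sg34 and 1.57, 0.79 and 0.70 TPM in WT. The lines overlapped for both. The difference of 0.63 ± 0.31 for OMTN3 was the highest of the 25 and did not pass the test (adjusted p = 0.353). It passed with library weights at 0.83 (adjusted p = 0.0344), a setting that called 2137 of 16917 tested rows higher. OMTN6 (LOC_Os08g10080), under the filter, had 0.07, 0.31 and 0.19 TPM in sg34 and 1.17, 0.32 and 0.64 TPM in WT. Its sg34 values were all below its WT values as deposited, as were those of 7.14% of all detected rows under the filter. After scaling its groups overlapped. The 6 genes summed to 7.29, 5.27 and 3.72 TPM in sg34 and to 7.67, 4.65 and 8.56 TPM in WT, with 0 called in either direction.

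OsNAP (LOC_Os03g21060), which in rice promotes leaf senescence and nutrient movement to the grain, was at 4.23, 4.23 and 3.25 TPM in sg34 and 4.12, 3.73 and 4.85 TPM in WT. The lines overlapped and the difference of 0.33 ± 0.29 did not pass the test (limma adjusted p = 0.572). It was the 1 tested gene of the 3 senescence NAC genes. Of 5 genes of chlorophyll breakdown that OsNAP is known to act on or that work in the same pathway, all were tested, with 0 called higher and 0 lower and a median difference of 0.23. PAO (LOC_Os03g05310), the oxygenase that opens the chlorophyll ring, had 3.52, 3.95 and 5.71 TPM in sg34 and 12.7, 7.66 and 10.8 TPM in WT. RCCR1 (LOC_Os10g25030), which acts after it, had 3.15, 4.62 and 5.31 TPM in sg34 and 11.4, 10.3 and 11.97 TPM in WT. All sg34 values were below all WT values for both, yet the differences of -0.62 ± 0.16 (adjusted p = 0.105) and -0.76 ± 0.24 (adjusted p = 0.170) missed the threshold. SGR (LOC_Os09g36200), the stay-green gene that starts the breakdown, had 1.05, 2.56 and 2.13 TPM in sg34 and 0.80, 0.27 and 1.90 TPM in WT (0.90 ± 0.32, adjusted p = 0.228), which overlap.

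The secondary wall NAC genes OsSWN1 and OsSWN2 were below the filter. They summed to 0.07, 0.16 and 0.18 TPM in sg34 and to 1.15, 0.00 and 0.00 TPM in WT. The highest value thus came from WT replicate 1, the library with the highest green tissue marker sum. LOC_Os12g17600, a Rubisco small chain row, gave 84.45 of its 144 TPM. As deposited, LOC_Os12g17600, LOC_Os12g19470 and psbO were highest in that library. CAB2R was higher in sg34 replicates 2 and 3 (35.8 and 29.3 TPM) than in WT replicate 1 (22.1 TPM). Of 4 wall genes, 1 was tested. CESA4 (LOC_Os01g54620), a cellulose synthase subunit of secondary walls, had 11.3, 10.5 and 6.71 TPM in sg34 and 2.47, 4.10 and 3.33 TPM in WT. All sg34 values were above all WT values, but the difference of 1.69 ± 0.43 missed the threshold (limma adjusted p = 0.0998). CESA7 (LOC_Os10g32980), another subunit, was under the filter and had the opposite order as deposited, with 0.18, 0.29 and 0.31 TPM in sg34 and 0.61, 0.33 and 0.47 TPM in WT. After scaling its groups overlapped, while those of CESA4 did not. MYB46, a regulator of such walls in Arabidopsis, was listed at 0 in all 6 libraries.

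Of the starch and sugar genes reported as targets of endosperm NAC factors in rice, 3 were in the analysis and tested, with 0 called higher and 0 lower. Wx (LOC_Os06g04200), the granule-bound starch synthase that makes amylose, had 9486, 9145 and 12651 TPM in sg34 and 2790, 3292 and 2140 TPM in WT. All sg34 values were above all WT values. The difference of 2.46 ± 0.58 missed the threshold (limma adjusted p = 0.0821), and it passed without the variance trend (adjusted p = 0.0112). Without rescaling it was 1.93 (adjusted p = 0.178), and over all alternative settings the limma adjusted p ran from 0.00355 to 0.444. SBEI (LOC_Os06g51084), a starch branching enzyme, had 2123, 2301 and 2869 TPM in sg34 and 1578, 2801 and 1945 TPM in WT (0.76 ± 0.55, adjusted p = 0.497). MST6 (LOC_Os07g37320), a monosaccharide transporter, had 3.36, 3.09 and 2.05 TPM in sg34 and 3.51, 1.87 and 12.8 TPM in WT (-0.14 ± 0.55, adjusted p = 0.908). The lines overlapped for SBEI and MST6. Wx is also 1 of the 7 endosperm markers, whose sum of deposited TPM was higher in every sg34 library than in every WT library. After scaling Wx kept that order. The glutelin markers GluA2 and GluB2, also higher in every sg34 library as deposited, overlapped after scaling. Not all markers shared the deposited order of the sum. AGPL2, a subunit of the enzyme that makes ADP-glucose for starch, had 1314, 1481 and 2052 TPM in sg34 and 4118, 2267 and 2442 TPM in WT. RPBF, a Dof regulator of storage protein genes, had 344, 310 and 328 TPM in sg34 and 562, 558 and 547 TPM in WT. Both were lower in every sg34 library as deposited, and RPBF overlapped after scaling; neither passed the test (limma adjusted p = 0.688 and 0.744). The part of endosperm content in the Wx values was not tested.

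Of the 62 rows with the NAM domain outside the choice, 12 were tested, with 0 called higher and 1 called lower, against 1.89% and 1.87% of all tested rows. On the deposited TPM the lines did not overlap for 3 higher and 2 lower genes of the 12, against 4.59% and 17% of all tested rows. The 3 higher ones were ONAC129, described above, LOC_Os01g29840 and LOC_Os01g01470. LOC_Os01g29840 had 404, 479 and 548 TPM in sg34 and 263, 309 and 217 TPM in WT (1.38 ± 0.37, limma adjusted p = 0.116). LOC_Os01g01470 had 166.04, 229 and 220 TPM in sg34 and 165.74, 109 and 91.96 TPM in WT (1.29 ± 0.28, adjusted p = 0.0628). Neither passed the test, and both were higher in every sg34 library than in every WT library on both scales. The called gene was LOC_Os07g04560, described as similar to JUNGBRUNNEN, a NAC factor that in Arabidopsis extends lifespan and dampens hydrogen peroxide signals; it is named because it was the 1 call. It had 0.10, 0.36 and 0.00 TPM in sg34 and 2.36, 2.14 and 2.72 TPM in WT. All sg34 values were below all WT values, and the difference was -1.35 ± 0.23 (limma adjusted p = 0.0255, with 0.00537 to 0.116 over the alternative settings, some of which end the call). Like LOC_Os12g05990, it was a gene of low level in WT and near 0 in sg34. Both genes reached the filter only through their WT libraries, so the filter itself favours this likeness.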

How the data were processed

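The authors deposited 1 table of TPM, with 2 decimals and rice locus IDs, for 3 libraries of each line made from total RNA with a SMARTER kit, per the labels' protocols. The 6 library sums ran from 967528 to 991476 TPM. Per the submitters' processing notes, the tools were Bowtie2, DESeq2 1.12.4, HISAT2 2.1.0, RSEM and StringTie, with no role given. The same notes name a mouse build, so the rice build counts as not given, and no coordinates were used. Mutant columns are headed sg31 to sg33 and were matched to sg34 by replicate number. The table held 0 other columns of single libraries. TPM keep no depth, so counting intervals were not given, and the number of libraries limits the precision.

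TPM were divided by unweighted trimmed-mean factors (30% of M and 5% of A values trimmed) and log2(TPM + 1) values were tested in limma 3.58.1 under R 4.3.3. The test used a mean-variance trend, the 16917 rows reaching 1 TPM in 3 or more libraries, and Benjamini-Hochberg adjustment over those rows at 0.05. Fold changes on this scale understate low genes. On simulated data for sg34 against WT, with 200 of 16917 genes changed, drawn from the more abundant ones, the test recovered 23.2% of 2-fold changes, 67.4% of 4-fold changes, 87.6% of 8-fold changes and 88.7% of 16-fold changes, and 7.09% of calls were false. These rates do not cover low genes. Libraries with the same replicate number did not deviate together (correlations -0.54, 0.003 and -0.37). The labels do not say that the numbers pair libraries, and so few correlations cannot exclude it. The reported fit used no pairing.

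The NAC genes and the lists of related genes were chosen with earlier results of these data known. Named genes are the called NAC genes, the 8 highest by mean TPM, the 4 highest and 4 lowest differences, tested members of the role lists, and genes that kept to 1 TPM or more throughout one line and to 0.1 TPM or less throughout the other; others are named where a count or comparison singles them out. Of 5 endosperm target genes listed, 2 were not analysed here, 1 because its deposited description contradicted the name. Alternatives were other scalings, pseudocounts and filters, no variance trend, library weights, a replicate block, and each library left out in turn.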

Additional observations from a re-analysis of the deposited data

How the results depend on the processing

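The count of NAC genes lower in sg34, 1 in the reported fit, was 0 without rescaling, 0 with a filter of 5 TPM, 0 with the replicate block, 4 with library weights and 0 to 1 when a library was left out. The count higher, 0, was 1 with library weights. Over all rows, 320 higher and 316 lower became 186 higher without rescaling, 129 and 140 at 5 TPM, 2137 and 1779 with library weights, and 131 and 123 with the replicate block; leaving out a library gave 165 to 364 higher and 155 to 370 lower. Role-list calls, 0, were 3 with library weights (ONAC129, OMTN3 and OsNTL3) and 0 to 1 with a library left out. Calls among other pathway genes, 0, were 1 without the variance trend (Wx) and 4 with library weights (Wx, RCCR1, PAO and CESA4). The NAC median of 0.16 was -0.30 without rescaling and -0.007 to 0.43 with a library left out. The difference in NAC share of -0.0463 percentage points was -0.0573 to -0.0299 with a library left out and -0.0167 with LOC_Os01g01470 and LOC_Os01g29840 added. Both settings for the share were chosen after seeing the data.

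Single differences turned sign without rescaling for ONAC023 (-0.39), ONAC025 (-0.19), ONAC024 (-0.52), OsNAC6 (-0.22), OsNTL5 (-0.30), SNAC1 (-0.37), OsNAP (-0.10), OsNAC2 (-0.22) and OsNAC3 (-0.057). With no filter ONAC024 was -0.017, and with library weights SNAC1 was -0.21 and OsNAC3 -0.12. Leaving out a library turned ONAC024 (-0.17 to 0.30), SNAC1 (-0.46 to 0.63), OsNAC2 (-0.19 to 0.51), ONAC023 (-0.30 to 0.69), OsNAC5 (-0.29 to 0.10), OsNAC6 (-0.11 to 0.73), LOC_Os05g34830 (-0.0070 to 1.07), SNAC3 (-0.30 to 0.0056) and IDEF2 (-0.52 to 0.0196). LOC_Os12g05990 could not be tested at 5 TPM and had an adjusted p of 0.128 with the replicate block in limma. Whether the replicate numbers pair the libraries is not given in the labels. The causes were not tested. With 3 libraries a line, 23.2% of simulated 2-fold changes were recovered, so smaller differences were mostly not detectable.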
